A study of Mus musculus with 3 samples.

Results

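The genes described here encode nuclear hormone receptors, the family of transcription factors that read steroids, thyroid hormone, retinoids, vitamin D, fatty acids, sterols and bile acids directly from inside the cell. Members were taken from a list of 44 receptor genes that leaves out the clock repressors Nr1d1 and Nr1d2, and were kept where a probe set with exactly 1 gene symbol measured them. On this rule 42 of the 44 were measured, each by 1 probe set, out of 19938 named genes in all. Nr1h2 and Nr2e3 are not analysed here.

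The samples are mesangial cells, the pericyte-like cells that hold glomerular capillaries together, sorted from cortex tissue of male adult mice of the CD-1 strain. All of the mice carried the bacterial artificial chromosome transgene Tg(Meis1-EGFP)FO156Gsat, in which Meis1 regulatory sequence drives green fluorescent protein, and the sort took fluorescent cells from trypsin-treated glomeruli. The study has 1 group of 3 samples, each from 1 kidney, with no control population. Whether these were kidneys of different animals is not stated, so differences between samples may be partly technical.

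Most nuclear receptors share a zinc-finger domain that binds DNA and a pocket that binds a ligand. Steroid receptors wait in complexes with Hsp90 chaperones until hormone arrives, whereas thyroid hormone, retinoic acid, vitamin D, fatty acid and sterol receptors sit on DNA as heterodimers with a retinoid X receptor. Ligand exchanges corepressors for coactivators, and orphan members act without a known hormone. In the kidney, glucocorticoid and mineralocorticoid receptors carry the response to adrenal steroids, vitamin D and bile acid receptors are best known from the tubules, and COUP transcription factors from stromal and vascular cells.

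The deposited values are log2 signals, whose array medians were 7.53, 7.56 and 7.54 in samples 1, 2 and 3. A gene was called above the silent-gene threshold when each of its 3 values exceeded that array's 95th percentile of a reference set, 1269 probe sets of gene families that kidney cells are not known to use (keratin-associated proteins and the olfactory, trace amine and vomeronasal receptors). This threshold was 7.48, 7.46 and 7.40 on the arrays of samples 1, 2 and 3. A raised threshold lay 1 higher on the log2 scale. Probe sets differ in affinity, so a level is read against the threshold, and a higher signal of 1 gene than of another does not mean more RNA. A single value is the mean of the 3 samples, with ± its SD where the SD reached 0.05. Of 16 measured mesangial markers, 15 lay above the raised threshold, and Tbx18, at 6.12, was not above the threshold. None of 10 neuronal genes was above it, and 1 of 9 hepatocyte genes was, Apoa2 at 7.97. Fewer cells of a type and less RNA per cell cannot be told apart in such bulk samples, and neither can the cells a transcript came from. Above the threshold were 9 of 12 podocyte genes (75%), 16 of 18 endothelial (88.9%), 10 of 12 smooth muscle (83.3%) and 7 of 11 fibroblast genes (63.6%). So were 1 of 8 lymphocyte, 4 of 7 parietal and 2 of 4 erythroid genes. The share of all other named genes was 58.0%. Above the raised threshold were 4 podocyte, 10 endothelial, 9 smooth muscle and 5 fibroblast genes (33.3%, 55.6%, 75% and 45.5%). Among parietal and erythroid genes 1 each passed it, and no lymphocyte gene did, against 32.8% of other named genes.

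Of the 42 measured receptors, 24 (57.1%) lay above the silent-gene threshold, against 58.0% of the 18643 other named genes. Above the raised threshold were 10 receptors (23.8%), against 32.8% of other genes. Genes of the silent families themselves passed in 4.71% of cases, and in 0.958% at the raised threshold. The first of these shares follows largely from the 95th percentile, which was set on the same families. The share of the family above the threshold was thus near that of genes in general. The 10 were the glucocorticoid receptor Nr3c1, the thyroid hormone receptor Thra, the retinoic acid receptors Rara and Rarg, the retinoid X receptor Rxra, the fatty acid receptor Pparg, the COUP transcription factors Nr2f1 and Nr2f2, the testicular receptor Nr2c2 and the orphan receptor Rora. A further 14 lay between the thresholds, with means from 7.49 to 8.29. The remaining 18 were not above the threshold, with means from 5.86 to 7.44, and 17 of them passed it on no array. The counts moved with the percentile chosen. At the 99th percentile 10 receptors passed (35.3% of other genes) and 5 passed it raised by 1 (17.2%), at the 90th 28 (68.8%) and 16 (41.7%), and with olfactory receptors alone as reference 25 (59.9%) and 10 (34.2%). All 14 receptors between the thresholds were lost at the 99th percentile.

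**Figure D1:**
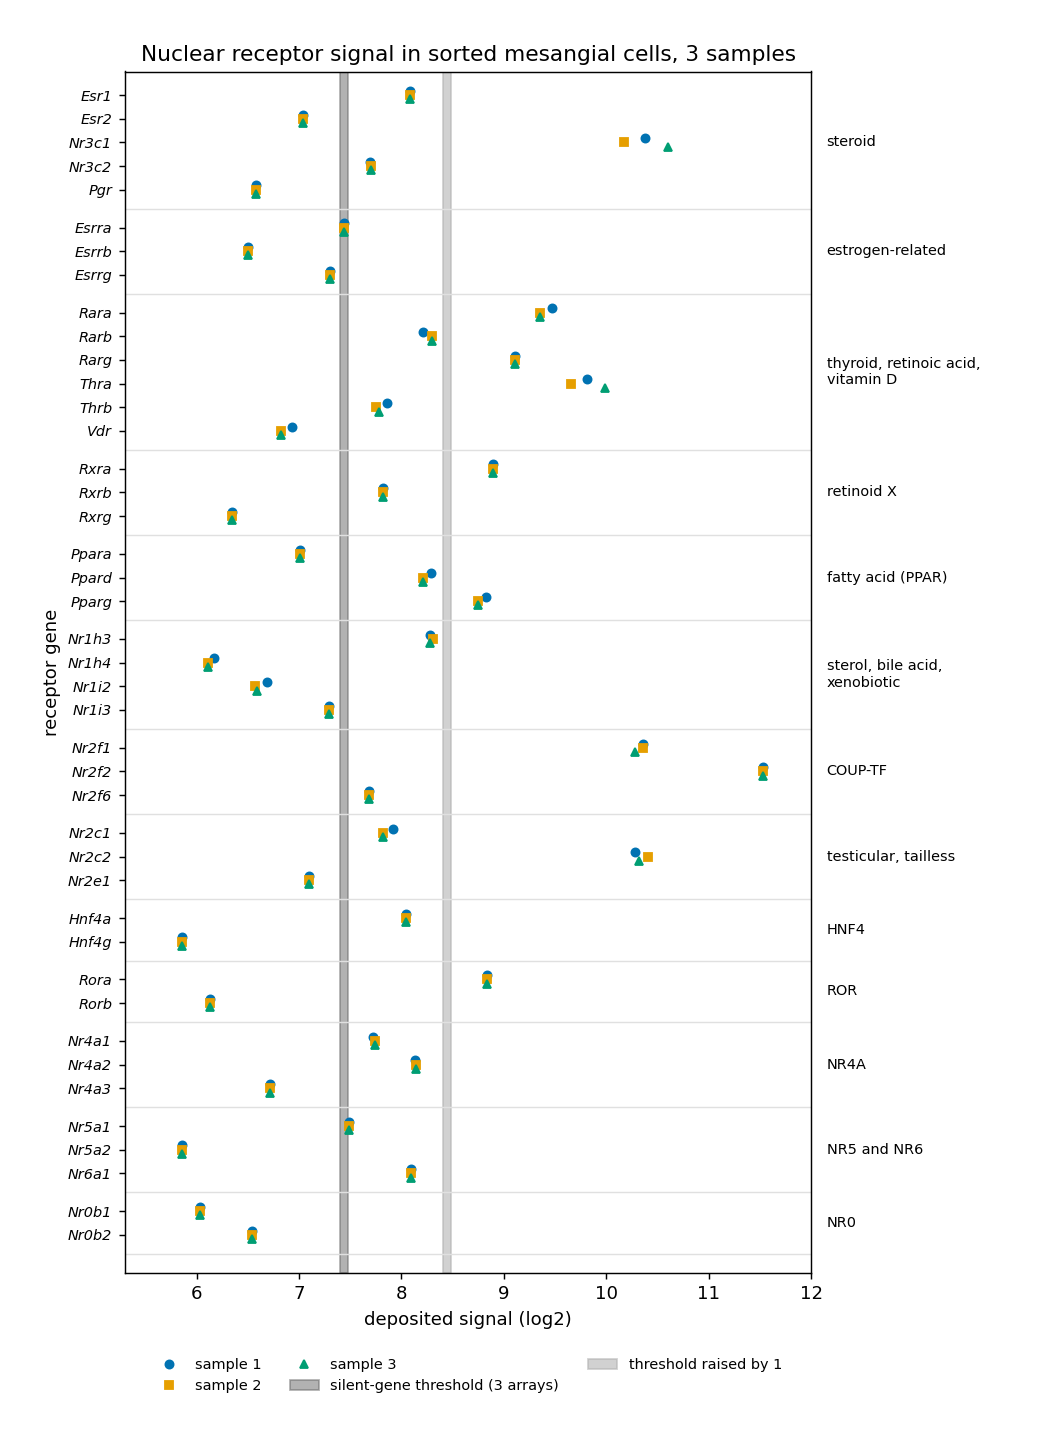
Deposited log2 signal (horizontal axis) of the 42 measured receptor genes (vertical axis, grouped by class at the right) in samples 1, 2 and 3, with vertical bands for the silent-gene threshold and the threshold raised by 1 over the 3 arrays. Nr2f2, Nr3c1, Nr2f1 and Nr2c2 lie above 10 in every sample, and all 3 estrogen-related receptors and both NR0 genes lie left of the raised band.

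Adrenal steroid receptors divided between the classes. The glucocorticoid receptor gene Nr3c1 had 10.38, 10.18 and 10.60 in samples 1, 2 and 3 (10.39 ± 0.21, SD, n = 3). All 3 values lay more than 2 above the threshold, with the lowest margin 2.72. The mineralocorticoid receptor gene Nr3c2, whose product binds aldosterone, had 7.70, 7.71 and 7.71. Its lowest margin was 0.22, so it was close to background on each array. Hsd11b2, the enzyme that inactivates glucocorticoid next to this receptor in aldosterone target cells, had 7.65, 7.71 and 7.71 and was likewise less than 1 above the threshold. Markers of the later tubule, where both genes are best known, were above the threshold in 10 of 18 cases (55.6%, against 58.0% of other named genes). None was above the raised threshold, against 32.8% of other named genes. These markers had list means of 7.22, 7.35 and 7.28 in samples 1, 2 and 3. Atp6v0d2, at 5.54 ± 0.15, and Scnn1g, at 6.03, were the lowest of them. Some markers, picked here with their values in view, were higher and uneven. Umod, of the thick ascending limb, had 9.51, 9.18 and 8.22, above the raised threshold in samples 1 and 2, and Calb1, of the distal tubule, had 7.72, 8.66 and 8.49. Their part in the Nr3c2 signal was not tested.

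No measured sex steroid receptor passed the raised threshold. Esr1, for estrogen receptor alpha, had 8.08 on all 3 arrays, above the threshold with a lowest margin of 0.60. Esr2, for estrogen receptor beta, had 7.04 and the progesterone receptor gene Pgr 6.58, each identical on the arrays and not above it. The related orphan receptors that drive mitochondrial genes were not above it either. Esrrb had 6.50 and Esrrg 7.30 on each array. Esrra, at 7.44 on each array, lay at the edge, with margins of -0.044, -0.025 and 0.031 in samples 1, 2 and 3, and passed only in sample 3, whose threshold was lowest.

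All measured receptors for thyroid hormone and retinoic acid were above the threshold. Thra, for thyroid hormone receptor alpha, had 9.81, 9.65 and 9.99 in samples 1, 2 and 3 (9.82 ± 0.17, SD, n = 3), more than 2 above it in every sample. Thrb, its beta counterpart, had 7.86, 7.75 and 7.78, with a lowest margin of 0.29. All 3 retinoic acid receptors passed. Rara had 9.47, 9.36 and 9.36 and Rarg had 9.11 on each array, both above the raised threshold. Rarb, itself a classic retinoic acid target, had 8.22, 8.30 and 8.30 and was not above the raised threshold. The vitamin D receptor gene Vdr, with 6.93, 6.83 and 6.83, was not above the threshold in any sample.

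The Rarb promoter is shown because it holds the direct repeat through which retinoic acid is known to act on this gene. Promoter sequences of this text are those of RefSeq for GRCm38.p6, 5′ to 3′, from 250 bases before a listed start to 50 after it, 300 bases each. The repeat was searched on both strands as GTTCA, any 6 bases and GTTCA again, and the whole match is in capitals.
Rarb, chr14:16575427-16575726, - strand: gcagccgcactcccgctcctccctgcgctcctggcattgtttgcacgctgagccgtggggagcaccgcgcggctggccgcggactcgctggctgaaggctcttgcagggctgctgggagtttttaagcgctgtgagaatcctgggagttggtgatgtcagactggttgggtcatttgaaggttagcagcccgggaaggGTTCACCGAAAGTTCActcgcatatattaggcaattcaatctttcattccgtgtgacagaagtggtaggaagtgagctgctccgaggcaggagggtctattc
This pattern stood in 25 of 32851 promoters (0.0761%), and Rarb was the only measured receptor among them. A match is a description of the sequence and shows no binding in these cells.

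Retinoid X and fatty acid receptors each had a member above the raised threshold, a member between the thresholds and a member below both. Rxra had 8.89, Rxrb 7.82 and Rxrg 6.34, each identical on the 3 arrays, so Rxra alone of the shared heterodimer partners passed the raised threshold and Rxrg passed neither. Pparg, the fat cell regulator, had 8.82, 8.74 and 8.74 and passed the raised threshold with a lowest margin of 1.28 over the lower one. Ppard, the widely expressed fatty acid receptor, had 8.28, 8.21 and 8.21, which was above the threshold only. Ppara, known for fatty acid oxidation in liver and proximal tubule, had 7.01 on each array and was not above it.

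Receptors of sterols, bile acids and foreign compounds were mostly not above the threshold. Nr1h3, for liver X receptor alpha, had 8.28, 8.31 and 8.28 and was the 1 of 4 that passed. The bile acid receptor Nr1h4 had 6.17, 6.11 and 6.11. The xenobiotic receptors Nr1i2 and Nr1i3 had 6.69, 6.57 and 6.59, and 7.29 on each array. Nr1h3 is abundant in macrophages, of whose 13 markers 5 (38.5%) were above the threshold, against 58.0% of other named genes. Above the raised threshold were 2 (15.4%, against 32.8%), Mrc1 at 11.81 ± 0.10 and Cd14 at 9.35 ± 0.10. The macrophage list means were 7.42, 7.38 and 7.41 in samples 1, 2 and 3, and Adgre1, at 5.56, and Itgam, at 5.78, were not above the threshold. Their part in the Nr1h3 signal was not tested.

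The COUP and testicular orphan receptors included 3 of the 10 genes above the raised threshold. Nr2f2, known from stromal, venous and lymphatic cells, had 11.53 on all 3 arrays, at least 4.05 above the threshold. Its paralog Nr2f1 had 10.36, 10.36 and 10.28, with a lowest margin of 2.88. Nr2f6, the third of this class, had 7.68 on each array and a lowest margin of 0.20. Nr2c2, for testicular receptor TR4, had 10.28, 10.41 and 10.32, and Nr2c1, for TR2, had 7.92, 7.82 and 7.82. The tailless gene Nr2e1, a regulator of neural stem cells, had 7.10 on each array and was not above the threshold. Endothelial markers, whose venous cells also use Nr2f2, were above the threshold in 16 of 18 cases (88.9%, against 58.0% of other named genes). Above the raised threshold were 10 (55.6%, against 32.8%), among them Cd34 at 11.99 and Emcn at 10.38 ± 0.19. These markers had list means of 8.86, 8.83 and 8.91 in samples 1, 2 and 3. Sox17, at 6.58, and Nos3, at 7.02, were the lowest of them. Pecam1, Cdh5, Kdr and Tie1, picked with their values in view, had 7.61, 7.66, 7.57 and 7.55, less than 1 above the threshold. The part of endothelial cells in the Nr2f2 signal was not tested.

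Among the HNF4 and ROR genes 1 paralog passed in each pair. Hnf4a, a regulator of proximal tubule and liver identity, had 8.04 on each array, a margin of at least 0.56, while Hnf4g had 5.86. Of 16 proximal tubule markers, 4 (25%) were above the threshold and none above the raised threshold, against 58.0% and 32.8% of other named genes. These markers had list means of 7.25, 7.17 and 7.03 in samples 1, 2 and 3. Fbp1, at 6.06, and Cubn, at 6.21, were the lowest of them. Some of these markers, again picked with values in view, were as high as Hnf4a or higher in some or all samples, with Slc22a12 at 8.36, Slc34a1 at 8.24, 8.25 and 7.96, and Kap at 8.44, 8.51 and 7.17. The part of tubule RNA in the Hnf4a signal was not tested. Rora had 8.83 on each array and passed the raised threshold, and Rorb had 6.13 and did not pass the threshold.

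The NR4A genes are immediate early genes whose products act without a ligand. Nr4a1 had 7.73, 7.75 and 7.75, Nr4a2 had 8.13, 8.14 and 8.14, and Nr4a3 had 6.71 on each array. The first 2 lay above the threshold with lowest margins of 0.25 and 0.65, and Nr4a3 did not pass. Other immediate early genes, many of which rise when tissue is dissociated, passed in 20 of 22 cases (90.9%, against 58.0% of other named genes) and the raised threshold in 8 (36.4%, against 32.8%), among them Dusp1 at 10.91 ± 0.12, Klf6 at 10.25, Jun at 9.69 ± 0.20, Btg2 at 9.66 and Zfp36 at 9.49. Klf4, at 7.27, and Maff, at 7.07, were not above it. The list means of 8.50, 8.49 and 8.53 in samples 1, 2 and 3 differed little, as did the NR4A values, and the part of dissociation was not tested.

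Promoters of the NR4A genes are shown because the 3 genes share a feature that their signals do not. They were searched on both strands for TGACG, the core of the cyclic AMP response element, which also lies inside the full element TGACGTCA. Matches are in capitals.
Nr4a1, chr15:101266596-101266895, + strand: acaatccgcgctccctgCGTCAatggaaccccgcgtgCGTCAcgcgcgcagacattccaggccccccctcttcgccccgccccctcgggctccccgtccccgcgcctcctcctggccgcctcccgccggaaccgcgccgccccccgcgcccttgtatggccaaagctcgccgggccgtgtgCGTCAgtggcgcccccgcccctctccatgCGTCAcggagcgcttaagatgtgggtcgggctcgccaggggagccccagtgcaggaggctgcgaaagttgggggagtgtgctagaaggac
Nr4a2, chr2:57123954-57124253, - strand: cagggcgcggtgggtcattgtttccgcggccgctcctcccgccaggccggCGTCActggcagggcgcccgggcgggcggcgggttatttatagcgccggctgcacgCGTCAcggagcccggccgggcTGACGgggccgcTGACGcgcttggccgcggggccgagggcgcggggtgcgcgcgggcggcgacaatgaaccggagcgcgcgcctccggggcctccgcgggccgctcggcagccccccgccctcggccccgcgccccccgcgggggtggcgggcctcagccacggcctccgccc
Nr4a3, chr4:48045055-48045354, + strand: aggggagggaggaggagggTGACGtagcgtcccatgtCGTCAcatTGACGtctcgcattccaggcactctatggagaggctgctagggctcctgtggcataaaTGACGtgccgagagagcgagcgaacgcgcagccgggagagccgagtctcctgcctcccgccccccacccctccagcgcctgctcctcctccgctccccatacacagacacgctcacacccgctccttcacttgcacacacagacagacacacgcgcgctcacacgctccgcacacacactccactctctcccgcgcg
Each of the 3 promoters held 4 matches of TGACG. At least 4 matches stood in 76 of 32851 promoters (0.231%), and in no other promoter listed for a measured receptor, where 3 was the most. The cutoff of 4 was the count of the NR4A promoters themselves, so this rarity is a description and no test. TGACG contains a CG, and the windows of Nr4a1, Nr4a2 and Nr4a3 held 35, 52 and 26 CG dinucleotides. For the CG-richest listed promoters of other named genes the median was 18, and promoters were not matched for this content. Any match stood in 16 of 59 receptor promoters (27.1%) and in 20.8% of all promoters. The full element was in none of the NR4A windows. Nr4a3, which had the same number of matches as its paralogs, was not above the threshold.

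The remaining orphans were near or below the threshold. Nr5a1, for the steroidogenic factor SF1, had 7.49 on each array and passed by 0.0055 in sample 1. Nr5a2, for the liver receptor homolog LRH1, had 5.86. Nr6a1, the germ cell nuclear factor, had 8.10 on each array and a lowest margin of 0.62. The NR0 genes encode repressors that lack the usual DNA-binding domain. Nr0b1, for DAX1, had 6.04 and Nr0b2, for the small heterodimer partner, 6.54, each identical on the arrays and not above the threshold.

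Differences between the samples were small for most receptors. Of the 24 above the threshold, 10 (41.7%) had identical values on the 3 arrays, as did 39.4% of other genes above it. A further 10 had the same value on exactly 2 arrays, against 30.9%, and 4 had 3 different values, against 29.7%. An SD of 0 in such genes does not mean that they were measured without error. The highest value exceeded the lowest by more than 0.1 in 5 of the 24 (20.8%), against 35.3% of other genes above the threshold. Over all 42 measured receptors this count was 7, and without replicate 1 it was 2, Nr3c1 and Thra. The median difference was 0.014 for the receptors and 0.034 for the other genes. In 8 of the 10 receptors alike on 2 arrays, sample 1 was the 1 that differed, against 47.0% of other genes of that kind, and sample 3 in 1, against 29.2%. Of these 8, 4 (Nr2c1, Ppard, Pparg and Rara) were highest in sample 1, against 49.1% of the other genes, and Nr3c2, Nr4a1, Nr4a2 and Rarb were lowest in it.

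The glucocorticoid receptor varied most. Nr3c1 was highest in sample 3 and lowest in sample 2, a difference of 0.42, and 6.27% of other genes above the threshold differed by as much. Thra had the same order of samples and a difference of 0.33, matched or exceeded by 9.92% of other genes. The order of sample 2 lowest, sample 1 middle and sample 3 highest was shared by 2 of the 24 receptors and by 5.64% of other genes above the threshold. Chaperones of steroid receptors had it in 4 of 15 cases (26.7%), but so did lists outside the receptor machinery, with 4 of 10 smooth muscle genes (40%) and 3 of 9 podocyte genes (33.3%), and 4 of 13 targets of the estrogen-related receptors (30.8%). Hspa8, which loads receptors onto the Hsp90 machine, had 12.55, 12.42 and 13.15, and Hsp90aa1, an inducible Hsp90 gene, had 11.96, 11.72 and 12.56. Dnaja1, an Hsp40 partner, had 12.32, 12.22 and 12.77. Nr1d1, which overlaps Thra in the gene table and was not counted as a member, had 11.45, 11.56 and 10.17, lowest in sample 3, where Thra was highest. With 3 samples no relation between these genes was tested.

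**Figure D2:**
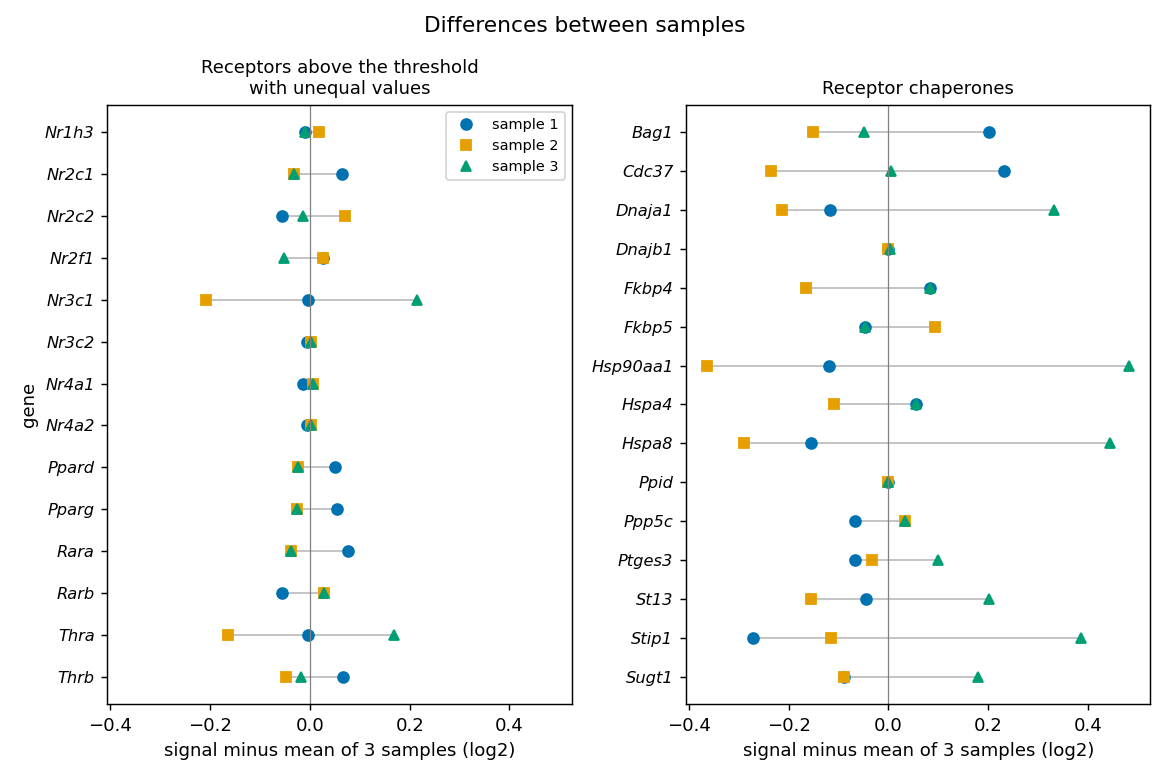
Signal minus the mean of the 3 samples (horizontal axis, log2) for the 14 receptors above the threshold with unequal values (left) and the 15 measured receptor chaperones (right), by sample; grey lines join the lowest and highest sample. Nr3c1 spans 0.42 and Thra 0.33 with sample 3 highest. Hsp90aa1 and Hspa8 have the same order of samples, which 40% of smooth muscle and 33.3% of podocyte genes had as well, against 26.7% of the chaperones.

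All measured coregulator and chaperone genes were above the threshold, against 58.0% of other named genes, and most were above the raised threshold, against 32.8%. All 21 coactivator genes passed it and 17 passed the raised threshold, among them the acetyltransferase genes Crebbp at 11.02 and Ep300 at 10.19 ± 0.06, Ncoa4 at 9.86 ± 0.11, the Mediator gene Med1 at 9.66 ± 0.06 and the chromatin remodeller Smarca4 at 9.64. Pprc1, at 7.82 ± 0.06, and Ppargc1b, at 7.69, were the lowest of them. Ppargc1a, the coactivator of mitochondrial genes, chosen after its values were seen, had 7.95, 8.28 and 8.34. All 15 measured corepressor genes passed and 12 passed the raised threshold, with the deacetylases Hdac1 at 11.07 and Hdac2 at 11.54 ± 0.06, the corepressor subunits Tbl1x at 10.20 and Tbl1xr1 at 11.03, and the demethylase Kdm1a at 10.29. Lcorl, at 7.72 ± 0.08, and Hr, at 7.84, were lowest. Of 15 chaperone genes all passed and 14 passed the raised threshold, including the Hsp90 cochaperone Ptges3 at 12.13 ± 0.09 and Bag1 at 11.55 ± 0.18. The lowest were Dnajb1 at 8.57 and Fkbp5 at 8.29 ± 0.08, an Hsp90 cochaperone that glucocorticoids induce.

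Of 23 measured genes that make, carry or break down receptor ligands, 10 (43.5%) passed the threshold and 6 (26.1%) the raised threshold, against 58.0% and 32.8% of other named genes. The first count was 12 at the 90th percentile, against 68.8% of other named genes, and 6 at the 99th, against 35.3%. Retinoid genes were among these 6. The retinaldehyde reductase Dhrs3 had 11.58, 11.79 and 11.58 and the retinol dehydrogenase Rdh10 had 9.40, 9.22 and 9.41. The retinoic acid synthase Aldh1a2 had 9.78, 9.03 and 9.33, highest in sample 1 and lowest in sample 2. Cyp26a1, which breaks retinoic acid down, had 5.65. H6pd, which supplies the cofactor for glucocorticoid activation, had 9.02 ± 0.25, and Srd5a3 had 8.71. Hsd11b1, the enzyme that activates glucocorticoid, chosen after its values were seen, had 6.27, 6.65 and 6.52 and was not above the threshold. The deiodinase gene Dio1, which activates thyroid hormone, had 5.56.

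Known target genes were counted for each class of receptor, and each count is to be read against the 58.0% of other named genes above the threshold and the 32.8% above the raised threshold. Of the glucocorticoid and mineralocorticoid targets, 16 of 22 (72.7%) were above the threshold and 7 (31.8%) above the raised threshold, the latter near the share of other genes. At the 99th percentile, which 35.3% of other named genes passed, 7 of 22 corticoid targets were left. So were 7 of the 18 sterol and bile acid targets given below. The corticoid targets included the phosphatase Dusp1, given above, the kinase Sgk1 at 9.28, the metallothionein Mt1 at 9.56, Errfi1 at 9.40 and Mertk at 10.14 ± 0.09. The aldosterone-induced sodium channel subunits Scnn1b, at 6.33, and Scnn1g were the lowest and not above the threshold. Of targets of the fatty acid receptors, 11 of 21 (52.4%) passed and 8 passed the raised threshold, with Txnip at 12.24 ± 0.10, the lipase Lpl at 11.09, 10.33 and 11.34, and the fatty acid oxidation enzymes Hadha at 10.16, Acadvl at 10.15 and Acadm at 9.78 ± 0.14. The liver-type targets Cyp4a10, at 4.97 ± 0.10, and Fabp1, at 4.58, were not above the threshold. Sterol and bile acid targets passed in 12 of 18 cases (66.7%) and the raised threshold in 7, with the sterol-responsive genes Apoe at 10.79 ± 0.14, Mylip at 9.56 ± 0.13, Pltp at 9.55 ± 0.18, Lpcat3 at 9.16 and Scd2 at 8.93. The bile acid exporter Abcb11, at 5.78, and Ugt2b1, at 4.72, were lowest and not above the threshold.

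Retinoic acid targets passed in 9 of 14 cases (64.3%, against 58.0% of other genes) and the raised threshold in 4 (28.6%, against 32.8%), which were Rarres2 at 12.40 ± 0.11, Dhrs3, Meis2 at 10.55 ± 0.07 and Meis1 at 9.39 ± 0.05. Meis1 regulatory sequence also drove the sort. Crabp2, at 6.48 ± 0.10, and Cyp26a1 were the lowest of this list and not above the threshold. Vitamin D targets passed in 7 of 12 cases (58.3%) and the raised threshold in 3 (25%), shares near or below those of other genes. These 3 were the calcium pump Atp2b1 at 11.34, Cd14 and Tnfsf11 at 8.56, while the calcium channel Trpv5, at 6.73 ± 0.06, and Cyp27b1, at 6.57, were lowest. Thyroid hormone targets passed in 7 of 12 cases (58.3%) and the raised threshold in 2 (16.7%), the calcium pump Atp2a2 at 11.82 ± 0.10 and Nrgn at 9.15 ± 0.10. G6pc, at 6.53, and Dio1 were the lowest of them. At the 99th percentile 4 of 14 retinoic acid, 3 of 12 vitamin D and 3 of 12 thyroid hormone targets were left. That threshold was passed by 35.3% of other named genes. Estrogen targets passed in 8 of 12 cases (66.7%) and the raised threshold in 5 (41.7%), with Igfbp4 at 10.67, Ccnd1 at 10.48 ± 0.21, Ctsd at 9.64, Xbp1 at 9.50 ± 0.29 and the corepressor Nrip1 at 9.35. Greb1, at 5.68, and Ltf, at 6.00, were not above the threshold.

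None of the 3 estrogen-related receptors passed on all arrays, and most of their known targets did. Of 16 genes, 13 (81.2%) were above the threshold and 12 (75%) above the raised threshold, against 58.0% and 32.8% of other genes. Among the 12 were the respiratory chain genes Cox6c at 12.88 ± 0.06, Cox5b at 12.24 ± 0.06, Ndufa4 at 12.01 ± 0.12, Atp5b at 11.94 and Cycs at 11.45 ± 0.18. The muscle forms Cox8b, at 7.30, and Ckmt2, at 5.83, were not above the threshold. Many of these genes answer to other factors as well, and a target above the threshold does not show that its receptor acts. Across the 12 lists of partners, ligand enzymes and targets, 135 of 184 distinct measured genes were above the threshold and 94 above the raised threshold. The shares of other named genes were 58.0% and 32.8%. The counts of 135 and 94 include the coregulators and chaperones, all of which passed the threshold.

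**Figure D3:**
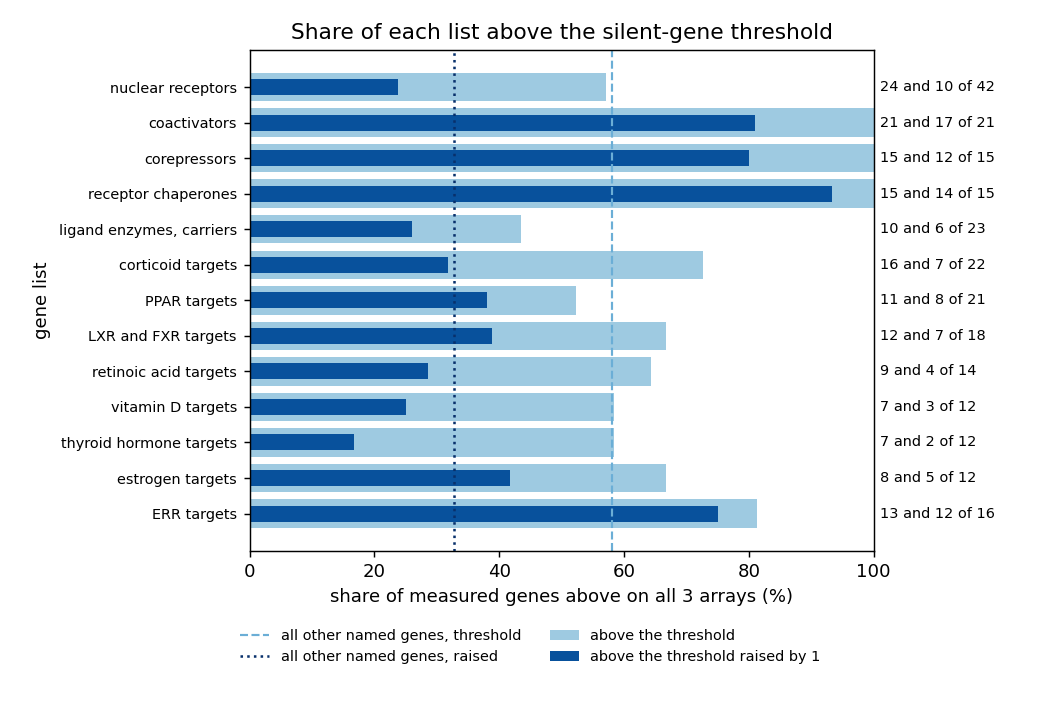
Share of the measured genes of each list (vertical axis) that lay above the silent-gene threshold (light bars) and above the threshold raised by 1 (dark bars) on all 3 arrays (horizontal axis, percent), with counts at the right and the shares of all other named genes, 58.0% and 32.8%, as dashed and dotted lines. Coactivators, corepressors and chaperones reach 100%, and the receptors lie at 57.1%.

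Receptors above the threshold had a higher median number of CpG dinucleotides in their promoters than those that were not, as did other named genes. RefSeq promoters were found for 38 of the 42 measured receptors, and the listed promoter with the most CpG was taken. The 21 above the threshold had a median of 23 CpG in 300 bases and the 17 not above it a median of 14. Other named genes had medians of 22 and 8. At least 20 CpG stood in 13 of 21 receptors above the threshold (61.9%) and in 5 of 17 not above it (29.4%), against 58.9% and 25.2% of other genes. These counts are a description and were not tested.

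**Figure D4:**
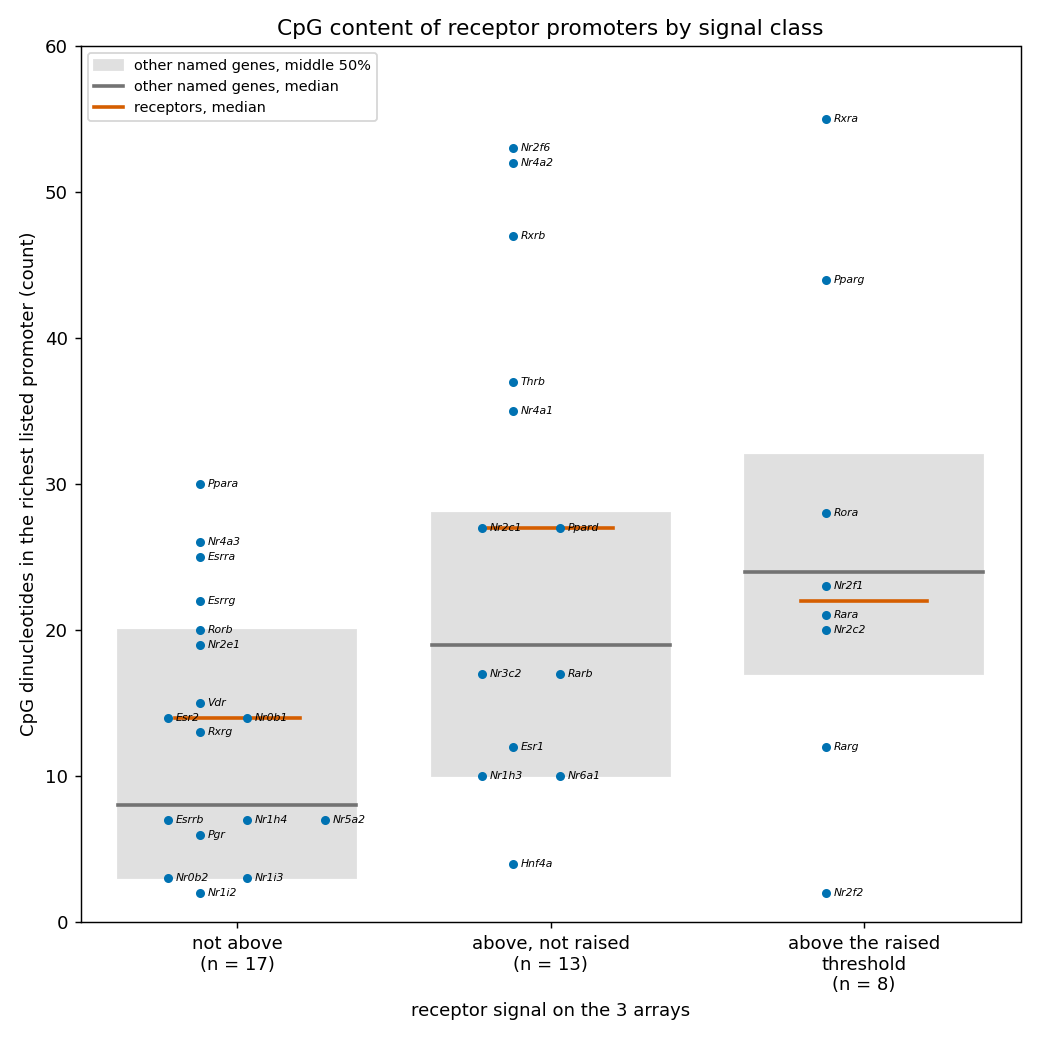
Number of CpG dinucleotides in the richest listed promoter (vertical axis, count in 300 bases) of 38 receptors, by whether the gene was not above the threshold, above it only, or above the threshold raised by 1 (horizontal axis); orange lines are receptor medians, and grey lines and boxes are the median and middle 50% of other named genes. Rxra has the most, 55, while Nr2f2 has 2 although its signal was above the raised threshold.

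The range is shown by 3 promoters with each CG in capitals. Rxra, above the raised threshold, held 55 CpG, Nr2f2, also above it, held 2 at its 1 listed start, and Ppara, not above the threshold, held 30.
Rxra, chr2:27676951-27677250, + strand: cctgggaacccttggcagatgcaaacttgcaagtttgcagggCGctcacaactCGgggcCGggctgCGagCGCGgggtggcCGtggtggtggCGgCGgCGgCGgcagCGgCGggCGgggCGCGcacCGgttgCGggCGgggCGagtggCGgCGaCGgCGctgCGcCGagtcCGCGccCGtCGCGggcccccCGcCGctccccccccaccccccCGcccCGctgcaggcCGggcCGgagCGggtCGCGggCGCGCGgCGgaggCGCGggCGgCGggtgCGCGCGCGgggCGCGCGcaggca
Nr2f2, chr7:70366697-70366996, - strand: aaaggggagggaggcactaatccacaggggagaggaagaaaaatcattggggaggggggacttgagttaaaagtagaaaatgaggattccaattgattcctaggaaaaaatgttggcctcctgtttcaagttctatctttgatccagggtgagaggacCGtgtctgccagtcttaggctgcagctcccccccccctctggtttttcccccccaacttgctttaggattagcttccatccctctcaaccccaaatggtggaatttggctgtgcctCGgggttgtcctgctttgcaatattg
Ppara, chr15:85735526-85735825, + strand: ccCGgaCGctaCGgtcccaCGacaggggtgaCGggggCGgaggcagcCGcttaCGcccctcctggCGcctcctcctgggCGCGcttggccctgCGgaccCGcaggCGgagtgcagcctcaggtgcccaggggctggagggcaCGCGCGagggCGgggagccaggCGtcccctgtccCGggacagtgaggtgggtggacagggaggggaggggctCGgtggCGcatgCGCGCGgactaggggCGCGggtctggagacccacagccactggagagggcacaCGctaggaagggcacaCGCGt
In these listed windows Ppara was thus CpG-rich without a signal above the threshold and Nr2f2 the reverse. Which starts the sorted cells use was not measured. The hexamer AGGTCA, which many nuclear receptors bind, stood on either strand in 11 of 59 receptor promoters (18.6%) and in 16.3% of all promoters.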

How the data were processed

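RNA of the 3 sorted samples was amplified once and hybridised to 1 Affymetrix array each, following the protocols in the labels. The authors deposited log2 signals per probe set, for which the submitters' processing notes name Affymetrix Expression Console. Version, background correction and summary method are not stated there. The base of the log2 scale was inferred from the highest deposited value, 14.39. Values were used as deposited with pandas 2.3.3, and their precision is limited by the number of arrays.

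Of 35557 probe sets, 21789 had exactly 1 symbol in the platform annotation, updated by Entrez number with the RefSeq table of GRCm38.p6 (21698 matched). Per gene the probe set with the highest mean was used. With 1 group, no test between conditions was made, and counts are read against the share of other named genes above the same threshold. Counting was tested on simulated data in which the raised genes lay far above the threshold, so calls close to it were not probed.

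All measured receptors are named. Of each list of partners, ligand enzymes, targets and immediate early genes, up to 5 genes above the raised threshold and the 2 lowest are named. Of some cell type marker lists fewer of these, or none, are named. The members, lists and motifs were chosen with earlier results of these data known. Alternatives were other percentiles (90 and 99), olfactory receptors alone, the mean of the arrays, other probe set rules, median centring and leaving out each sample.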

Additional observations from a re-analysis of the deposited data

How the results depend on the processing

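The count of receptors above the silent-gene threshold depended on how the threshold was set. At the 99th percentile of the silent families, 10 receptors were above it (35.3% of other genes) and 5 above it raised by 1 (17.2%). At the 90th percentile, 28 were above it (68.8%) and 16 above it raised by 1 (41.7%). The 10 left at the 99th percentile were those above the raised threshold before, and the 14 lost included Nr4a1, Nr4a2, Hnf4a, Nr3c2, Esr1 and Nr1h3. With olfactory receptors alone as reference Esrra passed as well, giving 25. The mean over arrays and leaving out each sample gave 24 and 10 as before. The other probe set rules and median centring could not change these counts. Each measured receptor had 1 probe set, and centring shifts an array and its threshold alike. The count of measured receptors whose samples differed by more than 0.1, which was 7, ranged from 2 to 7 without 1 sample, and was 2 without replicate 1, where Nr3c1 and Thra remained. It was 9 after median centring. Of 184 measured list genes, 96 were above the threshold at the 99th percentile, against 35.3% of other genes. At the 90th percentile 142 were, against 68.8%, and the other alternatives lay between these counts. Counts of 6 single lists moved by more than 1.5 times, all at the 99th percentile. Receptor levels moved by 0.11 at most. No paired analysis was possible because there is 1 group.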
